A study of Mus musculus with 8 samples.

Results

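Imprinted genes are described here in gonadal cells of the mouse at embryonic day 13: the 10 genes H19, Dlk1, Meg3, Peg3, Mest, Plagl1, Grb10, Ndn, Peg10 and Sgce, of 18194 genes with a probe set on the array. They were taken from a list of imprinted genes, chosen with earlier results of these data known. Every probe set annotated to one of them was kept, which gave 37 of the 45037 probe sets tested. Meg3 had 11 probe sets, Ndn 8, Peg3 5, Plagl1 3, Grb10 3, Dlk1 2, Sgce 2, and H19, Mest and Peg10 had 1 each. The probe set of H19 also carries the symbol of Mir675, the microRNA gene that lies inside H19. The probe set of a gene that read highest on average is called its leading probe set. Of the 37 probe sets, 29 reached 6 on the log2 scale in at least 2 arrays, 13 were above 8 on all 8 arrays, and 6 were below 5 on all 8.

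The study profiled RNA of supporting cells and of whole gonads on 8 Affymetrix GeneChip arrays of the mouse genome, 2 for each of 4 groups. Sertoli cells, the supporting cells of the testis, were about 22000 sorted EGFP-positive XY cells per sample, and pre-granulosa cells, the supporting cells of the ovary, were about 30000 sorted EGFP-positive XX cells. Testis and ovary samples were pools of 4 whole gonads, XY and XX. All 4 groups carry the strain label C57BL6/J-Tg92 and were collected at E13; the labels do not name the promoter that drives EGFP, and no group had a further treatment or allele. About 20 ng of total RNA per sample gave the labelled cDNA. The labels call the 2 RNA samples of a group separate but name no animals, so p-values measure only the spread between these samples, which may be technical.

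Sorted cells carried the markers of their labels. The median log2 level of 8 Sertoli markers was 11.94 and 12.07 in Sertoli arrays and 6.42 and 7.78 in pre-granulosa arrays, and that of 7 pre-granulosa markers was 5.80 and 5.56 in Sertoli arrays and 10.73 and 9.65 in pre-granulosa arrays. The median of 8 germ cell markers was 4.29 to 4.95 in the 4 sorted arrays, against 10.42 to 10.71 in the 4 gonad arrays. Replicates spread more in sorted cells: the root mean square SD over all probe sets was 0.43 in Sertoli cells, 0.53 in pre-granulosa cells, 0.20 in testis and 0.30 in ovary. Ranked values differed by at most 0.175 among the sorted arrays and 0.146 among the gonad arrays, but by a median of 0.383 between the sets. Levels are therefore compared as deposited within a set, and relative to each array's median between sets. On that scale 5 of the 8 Sertoli markers read higher in pre-granulosa cells than in ovary without overlap, and 1 read lower. Of all genes 31.9% read higher and 32.8% lower in this way.

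Genomic imprinting is the expression of a gene from only the maternal or only the paternal chromosome, set by DNA methylation that was laid down in the parents' germ cells. Imprinted genes lie in clusters that share a control region, many act on fetal growth and metabolism, and in the germ cells of the fetal gonad the old marks are erased before new ones are set. In somatic gonadal cells such as Sertoli and pre-granulosa cells the marks are kept. Of the 10 genes, H19, Meg3 and, in most tissues, Grb10 are expressed from the maternal chromosome, and the other 7 from the paternal one. The arrays measure both chromosomes together and show nothing of the parent of origin.

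H19 is the host of miR-675, whose mature forms are shown because the only probe set of H19 is annotated to both. The sequences are from RefSeq on the build GRCm38.p6, at chr7:142577112-142577133 and chr7:142577078-142577099 on the minus strand, and the capitals mark the seed, bases 2 to 8, by which a microRNA pairs with its targets. The pair of mature forms have different seeds.
mmu-miR-675-5p: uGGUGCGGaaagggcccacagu
mmu-miR-675-3p: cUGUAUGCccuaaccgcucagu

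Imprinting acts through the methylation of CpG sites, so the start regions of 4 of the genes called below are shown with each CG in capitals. They are the 250 bases before the annotated start, 5′ to 3′ on the gene's strand, from RefSeq on GRCm38.p6. Mest is shown at 2 of its annotated starts.
Peg3 chr7:6730420-6730669 (-): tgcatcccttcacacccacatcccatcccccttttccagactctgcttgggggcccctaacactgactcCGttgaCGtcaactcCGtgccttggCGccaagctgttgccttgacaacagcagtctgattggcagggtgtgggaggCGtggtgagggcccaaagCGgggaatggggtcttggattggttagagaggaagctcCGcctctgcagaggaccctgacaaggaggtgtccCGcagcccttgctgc
Mest chr6:30733256-30733505 (+): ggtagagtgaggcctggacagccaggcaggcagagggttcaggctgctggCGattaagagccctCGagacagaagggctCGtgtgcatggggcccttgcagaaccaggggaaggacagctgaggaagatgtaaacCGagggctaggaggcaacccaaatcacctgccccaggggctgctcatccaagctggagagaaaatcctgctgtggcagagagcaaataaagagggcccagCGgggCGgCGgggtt
Mest chr6:30737800-30738049 (+): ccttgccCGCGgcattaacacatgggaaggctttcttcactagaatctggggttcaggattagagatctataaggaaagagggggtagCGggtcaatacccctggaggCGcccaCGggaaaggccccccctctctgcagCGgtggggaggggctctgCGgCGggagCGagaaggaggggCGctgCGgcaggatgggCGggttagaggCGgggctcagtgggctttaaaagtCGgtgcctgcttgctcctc
Dlk1 chr12:109452573-109452822 (+): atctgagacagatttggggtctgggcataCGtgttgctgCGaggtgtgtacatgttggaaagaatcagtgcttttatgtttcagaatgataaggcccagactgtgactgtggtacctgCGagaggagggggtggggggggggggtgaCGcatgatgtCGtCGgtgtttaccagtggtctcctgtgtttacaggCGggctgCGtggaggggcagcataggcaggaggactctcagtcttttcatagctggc
Meg3 chr12:109540746-109540995 (+): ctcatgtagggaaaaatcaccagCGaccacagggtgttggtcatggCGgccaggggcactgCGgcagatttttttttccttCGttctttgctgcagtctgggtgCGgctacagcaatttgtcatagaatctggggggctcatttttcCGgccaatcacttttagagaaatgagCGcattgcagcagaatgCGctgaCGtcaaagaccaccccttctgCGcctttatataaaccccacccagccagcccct
The motif searched was CG, which reads the same on both strands. The windows hold 8 CG for Peg3, 7 and 14 for the first and second starts of Mest, 8 for Dlk1 and 10 for Meg3. A second Meg3 window, not shown, holds 0. The median of all 32851 windows is 6 and 92.1% hold at least 1. The Peg3 window shares 163 bases with that of Usp29, the gene that starts beside it and runs the other way. Of the 10 genes 7 matched the promoter table, with 11 windows of 0 to 40 CG, 9 of them above the median; H19, Peg10 and Sgce had no window there. The counts describe the sequence and carry no measurement of methylation.

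Between the sorted cells, Peg3 and Mest were lower in Sertoli cells. Called here means an adjusted p at or under 0.01 in limma with Benjamini-Hochberg adjustment over the 45037 probe sets, the false discovery rate that the series text names. Of the 37 probe sets 3 were called lower and 0 higher, where 0.813% of all probe sets were called lower and 0.999% higher (1.81% either way). By leading probe set 2 of the 10 genes were called, against 2.67% of all genes. As the 10 were chosen with earlier results known, such shares do not test imprinted genes as a class. The median difference over the 37 probe sets was -0.39, against 0.01 over all probe sets. The 2 groups did not overlap for 20 probe sets that read lower and 3 that read higher in Sertoli cells, against 20.5% and 20.9% of all probe sets. By gene it was 5 of 10 lower and 1 higher, against 19.1% and 24.2% of all genes. In these bulk samples, fewer cells of a type and less RNA per cell cannot be told apart.

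Peg3 encodes a large zinc-finger DNA-binding protein, and its leading probe set 1433924_at read 11.92 and 11.98 in Sertoli arrays, against 13.27 and 13.34 in pre-granulosa arrays. The groups lay apart by far more than their replicates differed. The difference was -1.35 ± 0.13 (SE, n = 2 each), 2.55-fold lower in Sertoli cells (limma adjusted p = 0.00445). Each SE comes from the limma fit to all 8 arrays, so it pools the spread of sorted cells and gonads. A further Peg3 probe set, 1417355_at, read 7.47 and 7.34 in Sertoli arrays, against 10.90 and 10.20 in pre-granulosa arrays. Both Sertoli arrays were below both pre-granulosa arrays there too, and the difference was -3.14 ± 0.25, 8.84-fold lower in Sertoli cells (limma adjusted p = 0.00252). The probe set 1417356_at read 5.23 and 5.88 in Sertoli arrays, against 5.72 and 7.90 in pre-granulosa arrays, and the groups overlapped. The other pair of Peg3 probe sets were dim, at 3.78 or below on all 8 arrays.

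Mest, which encodes a protein of the alpha/beta hydrolase family, read 8.87 and 9.13 in Sertoli arrays, against 10.23 and 10.16 in pre-granulosa arrays. Its Sertoli levels were the lower pair, and the difference was -1.19 ± 0.15, 2.29-fold lower (limma adjusted p = 0.00993). That p lies just inside the threshold, and the call of Mest remained in 3 of 18 alternatives, against 9 of 19 for Peg3. With 1 array left out, the difference ranged over -1.32 to -1.07 for Mest and -1.39 to -1.32 for Peg3. Such a fit keeps 1 array in some group, so its calls say little about single genes.

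H19, a long noncoding RNA of the Igf2 cluster, read 12.74 and 12.33 in Sertoli arrays, against 13.88 and 14.16 in pre-granulosa arrays. The groups did not overlap and the difference was -1.48 ± 0.19, but the adjusted p of 0.0102 missed the threshold. Its levels in pre-granulosa cells were near the top of the scale, since the highest value of any probe set was 14.34 and 14.28 on those arrays. Dlk1, a transmembrane ligand of the Delta family made by progenitor cells, had the largest difference of the opposite sign among the leading probe sets: 8.94 and 8.53 in Sertoli arrays, against 6.52 and 7.29 in pre-granulosa arrays. Its difference was 1.83 ± 0.32 with an adjusted p of 0.0284, and was not called. The other Dlk1 probe set, 1442724_at, read 5.44 and 5.05 in Sertoli arrays and 4.94 and 5.37 in pre-granulosa arrays, with overlap.

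Ndn encodes necdin, a protein of the MAGE family known from neurons. Its leading probe set read 12.49 and 12.44 in Sertoli arrays, against 13.44 and 12.92 in pre-granulosa arrays, a difference of -0.72 ± 0.20 (adjusted p = 0.114). Each of its 8 probe sets had both Sertoli arrays below both pre-granulosa arrays, with differences of -0.72 to -0.30, and none was called; adjusted p was 0.114 to 0.353. Of the 8, 1438939_x_at, 1438978_x_at and 1456575_at were dim, at 3.96 or below on all 8 arrays. Probe sets of 1 gene were read on the same arrays and are not separate replicates.

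The other 5 genes gave no call either between the sorted cells. Meg3, a long noncoding RNA, read 11.75 and 11.84 in Sertoli arrays, against 12.14 and 11.66 in pre-granulosa arrays, and the groups overlapped; the 95% interval of the difference was -0.63 to 0.41. Of its 11 probe sets 5 had both Sertoli arrays below both pre-granulosa arrays and none was called; 1426758_s_at gave -0.84, with an interval of -1.37 to -0.31, and 1428765_at gave -0.79, with an interval of -1.28 to -0.30. Plagl1, a zinc-finger transcription factor, read 10.59 and 10.22 in Sertoli arrays and 10.40 and 10.19 in pre-granulosa arrays, with an interval of -0.32 to 0.55. Grb10, an adaptor that damps signalling by the insulin and IGF receptors, read 11.88 and 12.01 in Sertoli arrays and 11.42 and 12.10 in pre-granulosa arrays, with an interval of -0.39 to 0.76. The intervals of these 3 leading probe sets span 0 and leave room for differences of that size either way. The remaining probe sets of Plagl1 and Grb10 went both ways, and none was called. Plagl1 1450533_a_at gave 0.87, with an interval of 0.31 to 1.43 and no overlap, and 1438588_at gave -0.87 with overlap. Grb10 1430164_a_at gave 1.19, with an interval of 0.32 to 2.06 and no overlap, and 1425457_a_at gave -0.0744 with overlap.

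Peg10, a gene derived from a retrotransposon, was the least even: 4.93 and 5.85 in Sertoli arrays, against 5.28 and 9.36 in pre-granulosa arrays. The difference of -1.94 ± 1.22 (adjusted p = 0.483) rests on the second pre-granulosa array, and it was 0.10 without that array. Sgce encodes epsilon-sarcoglycan, a membrane protein, and starts beside Peg10 on chromosome 6. It read 6.95 and 6.50 in Sertoli arrays, against 7.02 and 7.99 in pre-granulosa arrays, a difference of -0.78 ± 0.33 (adjusted p = 0.285).

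**Figure D1:**
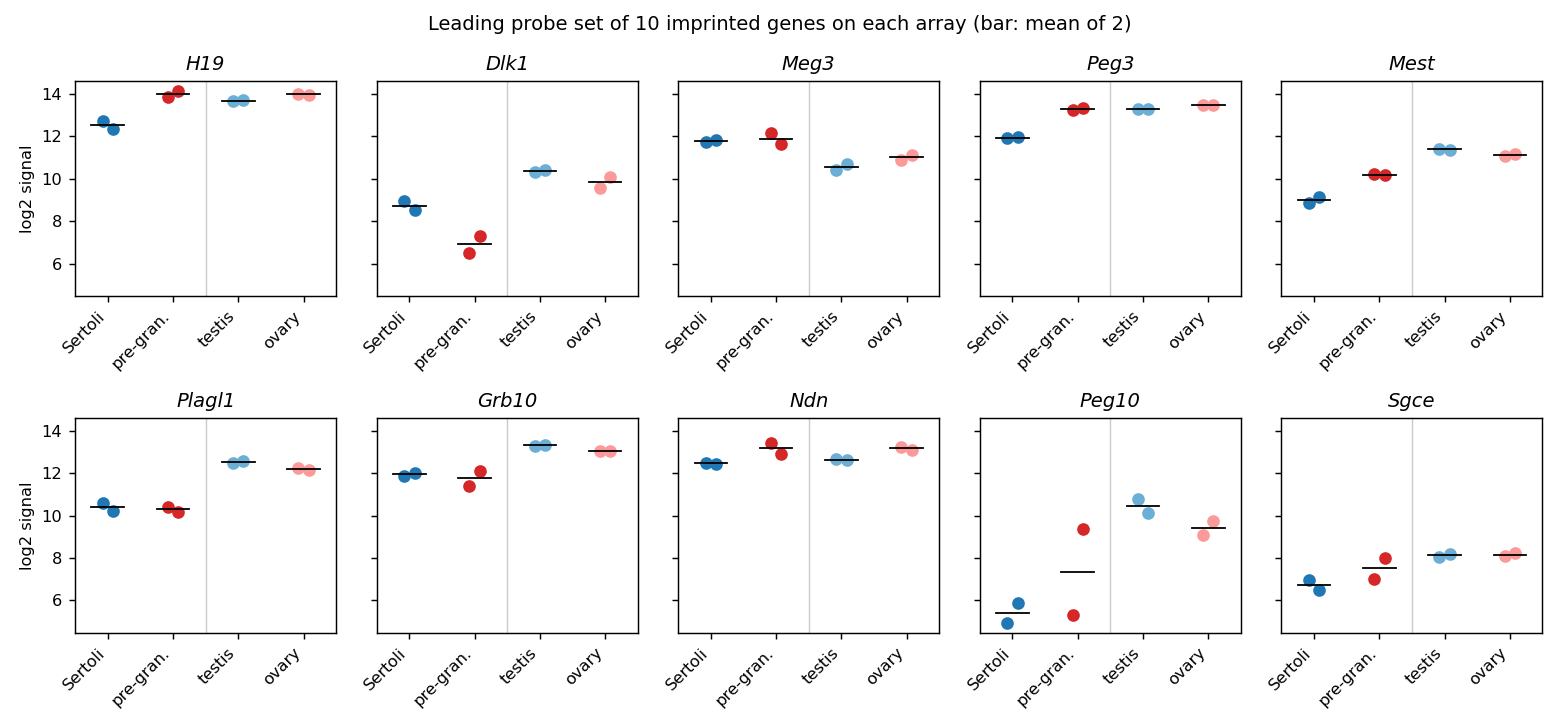
Log2 level as deposited (y axis) of the leading probe set of each of the 10 imprinted genes, 1 point per array and a line at each mean of 2, in Sertoli, pre-granulosa, testis and ovary samples. Peg3 at 11.92 and 11.98 in Sertoli arrays lay under every other array, and Peg10 ran from 4.93 to 10.77.

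Markers of other cell types were also compared between the sorted cells. Of all genes 24.2% had the Sertoli arrays above the pre-granulosa arrays and 19.1% below, and 2.67% were called. All 5 markers listed as steroidogenic had the Sertoli arrays above the pre-granulosa arrays, and 0 of 5 were called. Their medians were 8.69 and 10.03 in Sertoli arrays, against 6.22 and 6.14 in pre-granulosa arrays. Of these, Hsd17b3 also read higher in Sertoli than in testis arrays, at means of 12.64 and 11.24 as deposited. The other 4 read lower in Sertoli than in testis arrays. Whether Hsd17b3 marks another cell type here was not tested. All 7 macrophage markers had the Sertoli arrays above the pre-granulosa arrays too, and 1 was called. Their medians were 5.63 and 6.94 in Sertoli arrays, against 4.98 and 4.62 in pre-granulosa arrays. Of 9 interstitial and stromal markers 4 had the Sertoli arrays above and 2 below, and 0 were called. Their medians were 7.59 and 7.71 in Sertoli arrays, against 7.23 and 7.64 in pre-granulosa arrays. The first and second pre-granulosa arrays differed widely for Nr2f2 (5.80 and 9.82) and Col1a1 (7.23 and 11.42), and little for the others of this list. Peg10 read 5.28 and 9.36 on the same arrays. Of 8 endothelial markers 4 had the Sertoli arrays above the pre-granulosa arrays and 1 was called, with medians of 6.45 and 6.82 in Sertoli arrays, against 4.95 and 5.42 in pre-granulosa arrays. Of 5 erythroid markers 2 had the Sertoli arrays above and 1 below, and 0 were called; their medians were 5.91 and 6.73 in Sertoli arrays, against 4.69 and 4.57 in pre-granulosa arrays. The part of these cells in the differences between the sorted cells was not tested.

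Between whole testis and whole ovary 0 of the 37 probe sets were called by limma, against 0.215% of all probe sets (0.155% higher and 0.06% lower), and 0 of the 10 genes, against 0.352% of all genes. At an unadjusted p under 0.05 there were 8 of 37, where all probe sets gave 4192 of 45037, and the lowest adjusted p was 0.222, for the Meg3 probe set 1428765_at. The groups did not overlap for 13 probe sets that read higher and 17 that read lower in testis, against 23% and 27% of all probe sets. By gene it was 5 higher and 4 lower, against 24.4% and 30.8% of all genes. The median difference was -0.04, against -0.02 over all probe sets. Differences of the leading probe sets ran from -0.54 for Ndn to 1.03 for Peg10.

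Peg3 read 13.28 and 13.30 in testis arrays, against 13.47 and 13.51 in ovary arrays, and the 95% interval of its difference was -0.51 to 0.12. Mest read 11.43 and 11.37 in testis arrays, against 11.07 and 11.16 in ovary arrays, with an interval of -0.08 to 0.65. Both genes had groups that did not touch, with differences of 0.28 or less in size that did not pass the test. H19 read 13.69 and 13.70 in testis arrays, against 14.00 and 13.98 in ovary arrays, with an interval of -0.75 to 0.17. Dlk1 read 10.31 and 10.40 in testis arrays, against 9.56 and 10.10 in ovary arrays, with an interval of -0.25 to 1.29. Ndn read 12.65 and 12.61 in testis arrays, against 13.26 and 13.07 in ovary arrays, with an interval of -1.03 to -0.05 and an adjusted p of 0.478.

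Whether the Sertoli minus pre-granulosa difference was unlike the testis minus ovary difference was tested as an interaction in the same limma fit. It called 0 of the 37 probe sets, and 0% of all 45037; at an unadjusted p under 0.05 there were 6 of 37 and 5142 of all. Mest had the lowest adjusted p of the 37, 0.0647, with an interaction of -1.48 ± 0.21. Peg3 gave -1.16 ± 0.18 by its leading probe set (adjusted p = 0.0783) and H19 gave -1.19 ± 0.27 (adjusted p = 0.164). The lower levels of Peg3 and Mest in Sertoli cells are thus not shown to differ from what the gonads gave.

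Sertoli cells differed from whole testis in 11 of the 37 probe sets, 5 called higher and 6 lower, where 2.97% of all probe sets were called higher and 3.73% lower (6.7% either way). By leading probe set, Meg3 was higher and Mest, Plagl1 and Peg3 were lower, 4 of 10 genes against 6.87% of all genes. Differences between sorted cells and gonads are relative to the array medians, which lifts them by 0.40 for Sertoli minus testis and by 0.38 for pre-granulosa minus ovary over the deposited values. The median difference of the 10 genes was -0.99, against 0.10 over all genes. The groups did not overlap for 17 probe sets that read higher and 15 that read lower, against 46.8% and 28% of all. By gene it was 2 higher and 8 lower, against 42% and 32.5% of all genes.

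Mest was lower in Sertoli cells than in testis. It read 8.87 and 9.13 in Sertoli arrays, against 11.43 and 11.37 in testis arrays, a difference of -2.00 ± 0.15, or 4.00-fold (limma adjusted p = 0.00159). Plagl1 read 10.59 and 10.22 in Sertoli arrays, against 12.47 and 12.58 in testis arrays, a difference of -1.72 ± 0.18, or 3.30-fold (limma adjusted p = 0.00341). Both had wide gaps between the groups. The other Plagl1 probe sets read lower without overlap but were not called. Probe set 1450533_a_at gave -1.26 (limma adjusted p = 0.0141) and 1438588_at gave -1.34 (limma adjusted p = 0.0649). Peg3 read 11.92 and 11.98 in Sertoli arrays, against 13.28 and 13.30 in testis arrays, a difference of -0.94 ± 0.13, or 1.92-fold (limma adjusted p = 0.00673). The probe set 1417355_at of Peg3 was lower as well, by -1.82 (limma adjusted p = 0.00657).

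Meg3 was higher in Sertoli cells than in testis. Its leading probe set read 11.75 and 11.84 in Sertoli arrays, against 10.42 and 10.69 in testis arrays, a difference of 1.63 ± 0.21, or 3.11-fold (limma adjusted p = 0.00582). The dimmer Dlk1 probe set 1442724_at was lower, at 5.44 and 5.05 in Sertoli arrays, against 8.27 and 8.33 in testis arrays, with a difference of -2.66 ± 0.39 (limma adjusted p = 0.00804). The leading Dlk1 probe set gave -1.22 ± 0.32 and was not called (adjusted p = 0.038). Peg10 had the largest difference of the 10 genes, -4.65 ± 1.23, from 4.93 and 5.85 in Sertoli arrays, against 10.77 and 10.10 in testis arrays. Its wide error left the adjusted p at 0.0394, above the threshold. H19 (-0.76 ± 0.19), Grb10 (-0.98 ± 0.24) and Ndn (0.23 ± 0.20) were not called, nor was Sgce, at 6.95 and 6.50 in Sertoli arrays, against 8.06 and 8.18 in testis arrays (adjusted p = 0.073).

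Pre-granulosa cells differed from whole ovary in 8 probe sets, 5 called higher and 3 lower, where 2.43% of all probe sets were called higher and 3.08% lower (5.51% either way). By leading probe set Dlk1 and Plagl1 were lower, 2 of 10 genes against 5.4% of all genes. The median difference of the 10 genes was -0.40, against -0.01 over all genes. The groups did not overlap for 17 probe sets that read higher and 9 that read lower, against 39.9% and 26.4% of all. By gene it was 4 higher and 4 lower, against 31.9% and 32.8% of all genes.

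Dlk1 read 6.52 and 7.29 in pre-granulosa arrays, against 9.56 and 10.10 in ovary arrays, a difference of -2.55 ± 0.32, or 5.86-fold lower (limma adjusted p = 0.0058). Plagl1 read 10.40 and 10.19 in pre-granulosa arrays, against 12.25 and 12.16 in ovary arrays, a difference of -1.53 ± 0.18, or 2.89-fold lower (limma adjusted p = 0.00492). Both pre-granulosa arrays were well below both ovary arrays for each gene. Both calls were lost in limma on these 4 arrays alone, where 0 of all probe sets were called. They were also lost without moderation, where 294 of all probe sets were called. With 1 array left out, the difference ranged over -2.95 to -2.15 for Dlk1 and -1.63 to -1.44 for Plagl1. A second Plagl1 probe set, 1450533_a_at, was also called lower, by -1.58 (limma adjusted p = 0.00836). The third, 1438588_at, had groups that overlapped and was not called, at -0.40 (limma adjusted p = 0.527). Of the 5 probe sets called higher, 4 were of Meg3. The other, Peg3 1447732_x_at, lay at the dim end, at 3.78 and 3.72 in pre-granulosa arrays, against 3.23 and 3.06 in ovary arrays. The leading probe set of Peg3 was not called (0.19 ± 0.13, adjusted p = 0.306), and Mest gave -0.54 ± 0.15 (adjusted p = 0.0482).

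These comparisons of sorted cells with gonads coincide with a change of cell makeup. All 8 germ cell markers were called lower in both comparisons. Of 9 interstitial and stromal markers 5 were called lower in each, with medians of 7.59 and 7.71 in Sertoli arrays, against 12.05 and 12.27 in testis arrays, and of 7.23 and 7.64 in pre-granulosa arrays, against 11.17 and 11.63 in ovary arrays. Of these 9 markers 1 read higher without overlap in each comparison. In pre-granulosa minus ovary 8 of 8 endothelial markers read lower without overlap, 3 of them called. So did 7 of 7 macrophage markers, 2 of them called. Of 5 erythroid markers 3 read lower without overlap, 1 of them called, and 2 read higher without overlap. Of 5 steroidogenic markers 4 read higher and 1 lower without overlap, and 0 were called. In Sertoli minus testis 4 of 5 steroidogenic markers read lower without overlap, 1 of them called, and 1 read higher. Of 8 endothelial markers 4 read lower without overlap, 1 of them called. Of 5 erythroid markers 2 were called lower and 2 read higher without overlap. Of 7 macrophage markers 2 read higher and 1 lower without overlap, and 0 were called. Of all genes 32.8% read lower and 31.9% higher in this way in pre-granulosa minus ovary, and 32.5% and 42% in Sertoli minus testis. The part of these cells in the levels of the imprinted genes was not tested. The calls also rest on few arrays, 2 per group. With limma fitted to the 4 arrays of a comparison alone, 9 of the 37 probe sets were called in Sertoli minus testis, against 2290 of all. In pre-granulosa minus ovary that fit called 0 of the 37 and 0 of all.

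**Figure D2:**
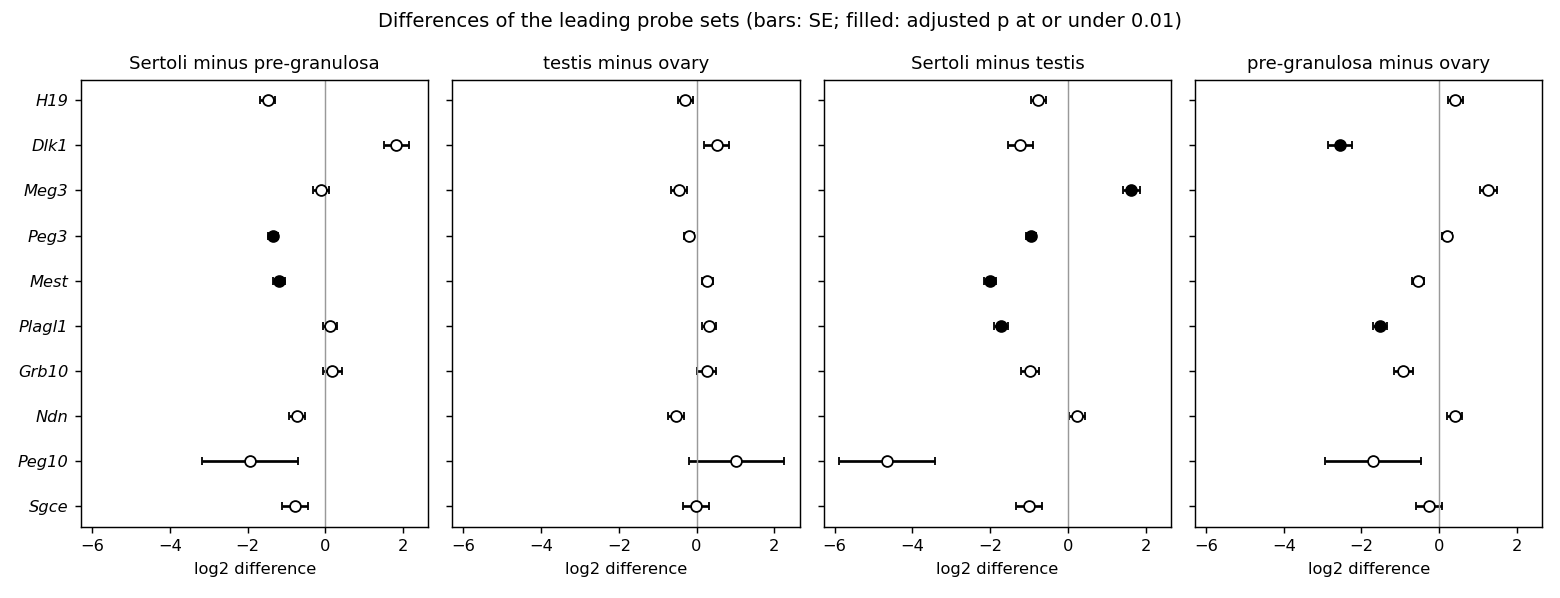
Log2 difference (x axis) of the leading probe set of each gene in the 4 comparisons, with bars of 1 SE of the limma fit; filled points have an adjusted p at or under 0.01. Testis minus ovary has 0 filled points, and the bars of Peg10 are the widest in each panel, with an SE of 1.22 between the sorted cells and 1.23 in Sertoli minus testis.

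Placed in order relative to the array medians, the genes fell into several patterns. H19 and Peg3 were ordered pre-granulosa, ovary, testis, Sertoli from high to low, and neighbouring groups did not overlap. Mest ran testis, ovary, pre-granulosa, Sertoli, and Dlk1 ran testis, ovary, Sertoli, pre-granulosa, again without overlap. Plagl1 and Grb10 were highest in testis, then ovary, and the sorted cell types overlapped below them. Meg3 was highest in the sorted cells, which overlapped, then ovary, then testis. Ndn ran pre-granulosa, ovary, Sertoli, testis without overlap. For Peg10 only testis lay apart, on top, while ovary and pre-granulosa, and pre-granulosa and Sertoli, overlapped. For Sgce only Sertoli lay apart, below the rest. Some of this depends on the scale. As deposited, H19 overlapped between pre-granulosa (13.88 and 14.16) and ovary arrays (14.00 and 13.98). Peg3 then read higher in ovary (13.47 and 13.51) than in pre-granulosa arrays (13.27 and 13.34). Ndn read higher in testis (12.65 and 12.61) than in Sertoli arrays (12.49 and 12.44).

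The 11 probe sets of Meg3 did not move as 1. Relative to the array medians, 5 were called higher in Sertoli cells than in testis, by 1.05 to 2.15, and 4 of these were called higher in pre-granulosa cells than in ovary, by 1.29 to 2.10. The largest was 1428765_at, at 9.13 and 8.95 in Sertoli arrays, against 7.16 and 7.41 in testis arrays. It read 10.06 and 9.60 in pre-granulosa arrays, against 8.11 and 8.10 in ovary arrays.

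One Meg3 probe set went the other way. 1436713_s_at read 5.68 and 5.11 in Sertoli arrays, against 7.43 and 7.32 in testis arrays, and was called lower by -1.58 ± 0.22 (limma adjusted p = 0.00716). In pre-granulosa arrays it read 5.41 and 5.51, against 7.38 and 7.11 in ovary arrays, and the difference of -1.41 ± 0.22 missed the threshold (adjusted p = 0.0109). Over the 8 arrays its correlation with the leading probe set was -0.97, as a description of arrays that share 4 groups. A further one, 1452905_at, was bright and nearly level: 10.58 and 10.66 in Sertoli, 10.69 and 10.93 in pre-granulosa, 11.06 and 11.06 in testis and 10.92 and 11.05 in ovary arrays. Which transcripts of the locus each probe set reads was not tested, so the higher Meg3 level in sorted cells refers to the probe sets called and not to every one.

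**Figure D3:**
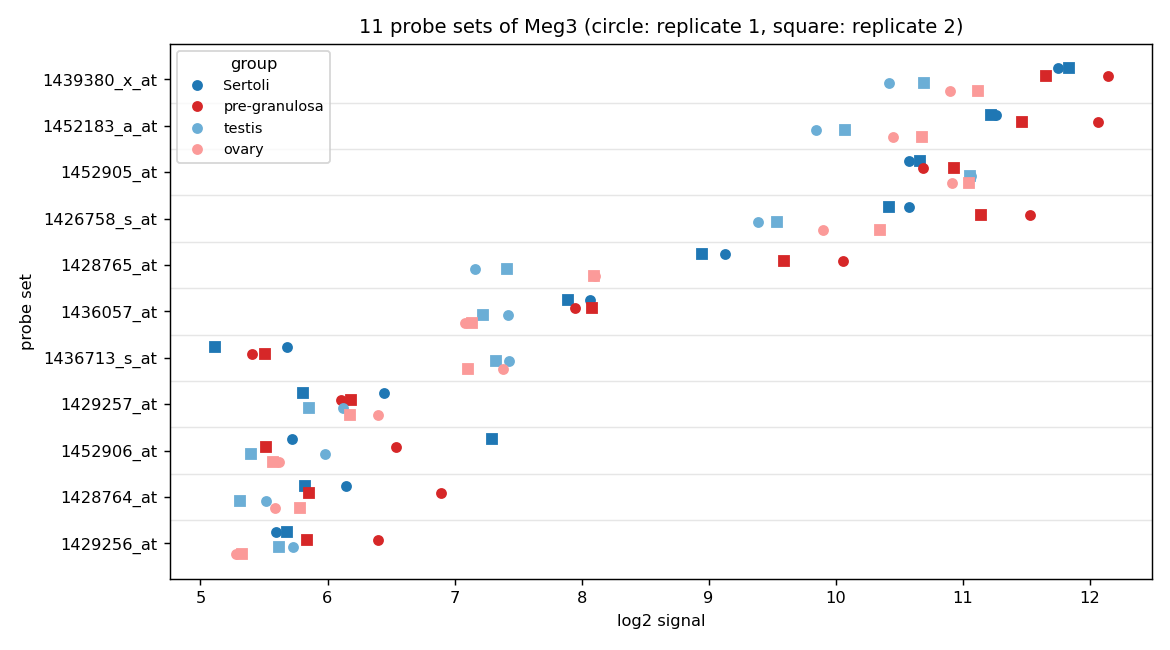
Log2 level as deposited (x axis) of the 11 Meg3 probe sets (y axis), 1 point per array (circle, replicate 1; square, replicate 2) in Sertoli, pre-granulosa, testis and ovary samples. The probe set 1436713_s_at lies at 5.11 to 5.68 in the sorted cells and 7.11 to 7.43 in the gonads, while 1428765_at lies higher in the sorted cells, at 8.95 to 10.06, than in the gonads, at 7.16 to 8.11.

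Probe sets disagreed in other genes too. The correlation with the leading probe set over the 8 arrays was 0.97 for Peg3 1417355_at and 0.84 for Dlk1 1442724_at, but 0.55 for Peg3 1417356_at, 0.07 for Ndn 1415923_at and -0.23 for Grb10 1430164_a_at. Peg3 1417356_at read 5.23 and 5.88 in Sertoli arrays and 5.72 and 7.90 in pre-granulosa arrays, against 10.05 and 9.48 in testis arrays and 8.36 and 8.93 in ovary arrays. Between the sorted cells, Peg3 was therefore lower in Sertoli cells by 2 of its probe sets, with no call from the others.

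RNA integrity differed between the arrays. The excess of the 3′ over the 5′ control probe set of Gapdh, in log2 units, was 1.94 and 2.69 in Sertoli, 3.68 and 1.24 in pre-granulosa, 0.72 and 0.95 in testis and 1.55 and 1.40 in ovary arrays. The actin control ranked the arrays differently. It gave 2.17 and 2.51 in Sertoli and 3.08 and 1.70 in pre-granulosa arrays. In gonads it gave 1.57 and 1.96 in testis and 2.33 and 2.18 in ovary arrays. By actin, both ovary arrays lay above the first Sertoli array. The 3 arrays with the largest Gapdh excess were all of sorted cells and were picked after the values were seen. They were the 3 lowest relative to the array medians for 4 of the 37 probe sets, against 6.49% of all probe sets. These were Peg10, Sgce 1420688_a_at, Grb10 1425458_a_at and Peg3 1417356_at. On values as deposited they were the lowest for 6 of the 37, against 10.9% of all, with Meg3 1452905_at and Peg3 1433924_at added. Peg10 read 5.28 in the pre-granulosa array with an excess of 3.68 and 9.36 in the one with 1.24. Sgce read 7.02 and 7.99 on the same arrays, and Peg3 1433924_at 13.27 and 13.34. The part of RNA integrity in these levels was not tested.

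**Figure D4:**
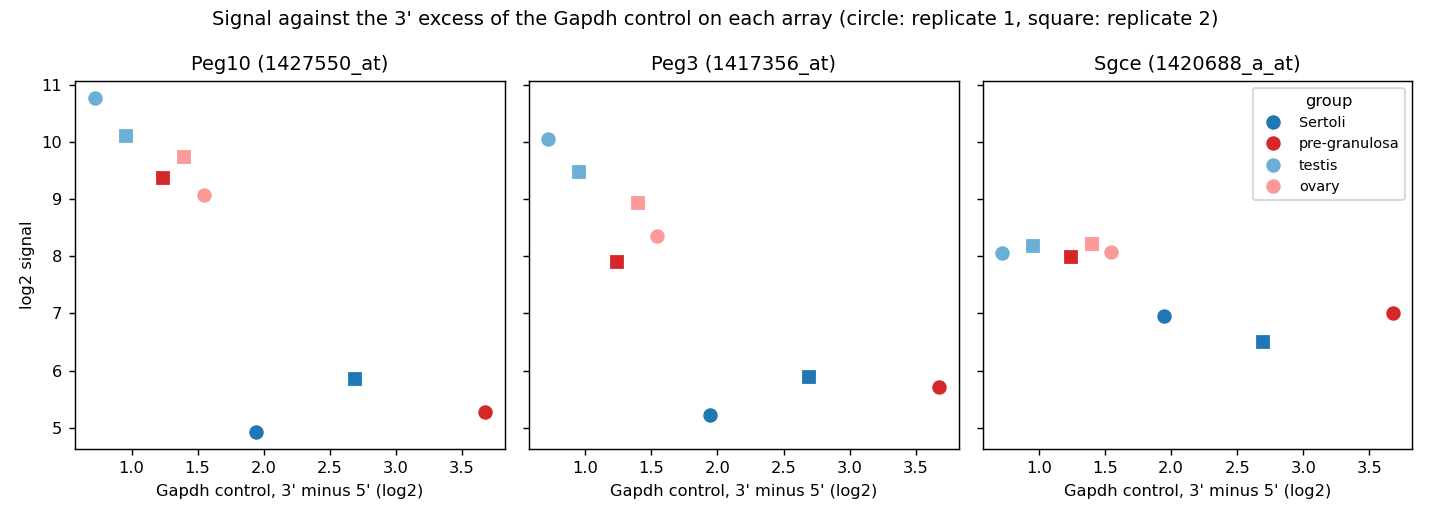
Log2 level as deposited (y axis) against the log2 excess of the 3′ over the 5′ Gapdh control (x axis), 1 point per array, for Peg10, Peg3 1417356_at and Sgce 1420688_a_at, with a panel each. Peg10 reads 5.28 at an excess of 3.68 and 9.36 at 1.24 in the 2 pre-granulosa arrays.

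Of 53 further imprinted genes 46 were measured, each by its leading probe set. In Sertoli minus pre-granulosa 0 were called higher and 1 lower, against 2.67% of all genes either way, and in testis minus ovary 0 and 1, against 0.352%. In Sertoli minus testis 1 was called higher and 4 lower, against 6.87% of all genes, and in pre-granulosa minus ovary 1 and 2, against 5.4%. Their median difference was -0.04 between the sorted cells and 0.01 between the gonads, against 0.04 and -0.04 over all genes. The lists go by imprinting known in at least 1 tissue, and whether it holds in gonadal cells was not tested. Between the sorted cells, the median was -0.44 over the 15 genes listed as paternally expressed and 0.02 over the 24 listed as maternally expressed. It was 0.03 over 7 listed as varying by isoform, tissue or strain. Of the 15 genes listed as paternally expressed 8 read lower and 2 higher in Sertoli cells without overlap. Of the 24 listed as maternally expressed 7 and 8 did, against 19.1% lower and 24.2% higher of all genes.

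Igf2, the fetal growth factor whose gene neighbours H19, was the gene called between the sorted cells. It read 9.53 and 9.68 in Sertoli arrays, against 11.72 and 12.42 in pre-granulosa arrays, a difference of -2.47 ± 0.24, or 5.54-fold lower (limma adjusted p = 0.00462). Against testis, at 12.55 and 12.49, it was 5.74-fold lower in Sertoli cells (limma adjusted p = 0.00287). In ovary arrays it read 12.60 and 12.64, and neither testis minus ovary (-0.10) nor pre-granulosa minus ovary (-0.17) was called. Igf2 is expressed from the paternal and H19 from the maternal chromosome, and both had their lowest levels in Sertoli arrays. The interaction for Igf2 was -2.37 with an adjusted p of 0.0637. The call of Igf2 was lost in limma on the 4 sorted arrays alone, where 0 of all probe sets were called. It was also lost without moderation and with a replicate block, where 13 and 341 of all probe sets were called.

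Phlda2, a small PH-domain gene that limits placental growth, was the gene called between the gonads. It read 6.41 and 6.59 in testis arrays, against 8.79 and 8.94 in ovary arrays, a difference of -2.36 ± 0.15, or 5.15-fold lower in testis (limma adjusted p = 0.00412). Pre-granulosa arrays read 6.36 and 6.19, 4.63-fold lower than ovary (limma adjusted p = 0.00139), and Sertoli arrays read 6.38 and 6.42. The ovary was thus the single group with a high level. The call of Phlda2 between the gonads was lost in limma on the 4 gonad arrays alone, where 80 of all probe sets were called. It was also lost without moderation and with a replicate block, where 0 and 17 of all probe sets were called.

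Igf2r, the receptor that clears IGF2, read 10.35 and 10.24 in Sertoli arrays, against 12.04 and 12.13 in testis arrays, 2.63-fold lower (limma adjusted p = 0.00972). Slc38a4, an amino acid transporter, read 7.45 and 5.99 in Sertoli arrays, against 11.21 and 11.23 in testis arrays, 17.2-fold lower (limma adjusted p = 0.00749). Klf14, a transcription factor gene, was lower in both sorted cell types: 3.90 and 3.98 in Sertoli arrays, against 6.75 and 7.44 in testis arrays, and 4.31 and 4.25 in pre-granulosa arrays, against 7.28 and 7.25 in ovary arrays. Tspan32, a tetraspanin, was higher in both, at 8.76 and 8.07 in Sertoli arrays, against 5.87 and 6.06 in testis arrays, and 7.04 and 6.44 in pre-granulosa arrays, against 4.68 and 5.13 in ovary arrays. Limma adjusted p was 0.00227 and 0.00265 for Klf14 and 0.00405 and 0.008 for Tspan32, in the order of the comparisons.

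None of the other partner genes was called in any of the 4 comparisons. Cdkn1c, a cyclin-dependent kinase inhibitor near H19, read 7.45 and 8.42 in Sertoli arrays, against 8.94 and 9.49 in pre-granulosa arrays (adjusted p = 0.112), and 7.87 and 8.24 in testis arrays, against 9.93 and 10.01 in ovary arrays (adjusted p = 0.107). Rian, a noncoding RNA of the Dlk1 and Meg3 cluster, gave 0.87 ± 0.44 between the sorted cells (adjusted p = 0.365) and -1.21 ± 0.44 in pre-granulosa minus ovary (adjusted p = 0.0955), where several Meg3 probe sets had positive differences. Usp29, beside Peg3, gave -0.87 ± 0.48 between the sorted cells (adjusted p = 0.415), Copg2, beside Mest, 0.19 ± 0.20 (adjusted p = 0.707), and Magel2, of the Ndn cluster, -0.17 ± 0.14 (adjusted p = 0.632). Snrpn (-0.32 ± 0.18, adjusted p = 0.431), Nnat (-1.11 ± 0.42, adjusted p = 0.219) and Gnas (0.03 ± 0.16, adjusted p = 0.956) were not called there.

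**Figure D5:**
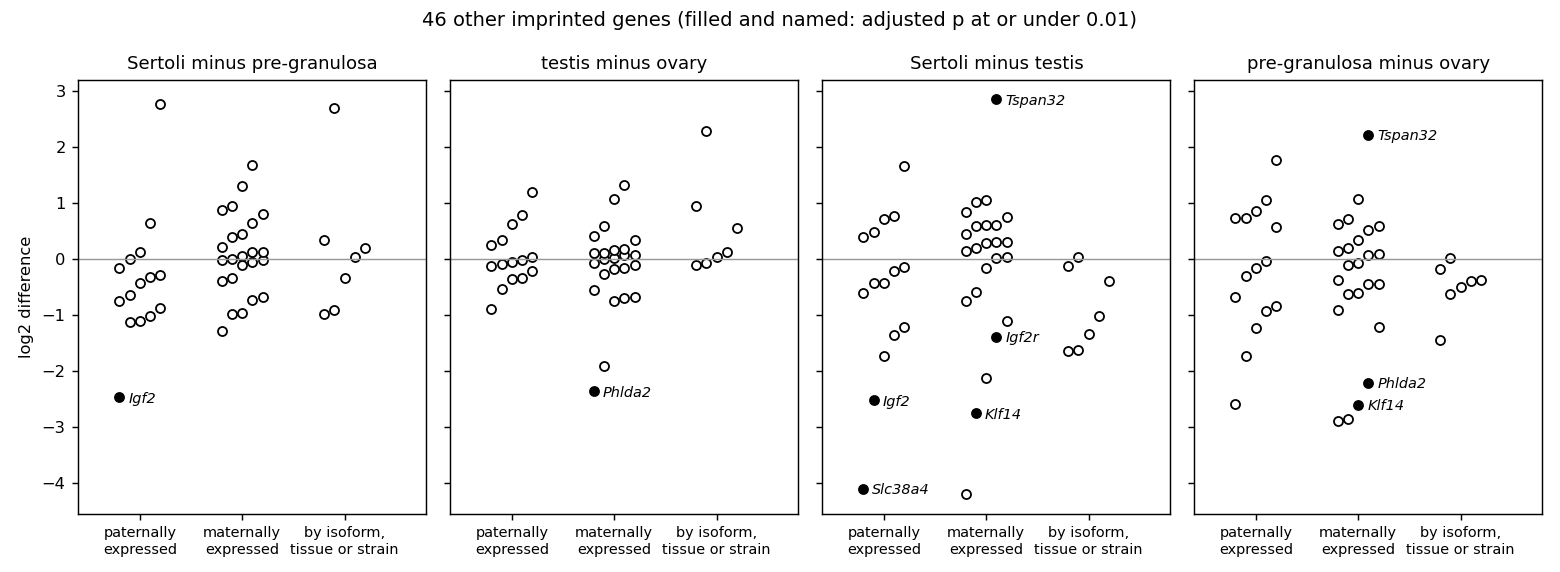
Log2 difference (y axis) of 46 other imprinted genes in the 4 comparisons, 1 point per gene. Columns go by the parental chromosome listed as expressed in at least 1 tissue. Filled and named points have an adjusted p at or under 0.01. Igf2 at -2.47 and Phlda2 at -2.36 are the filled points of Sertoli minus pre-granulosa and of testis minus ovary.

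The profiles of the 10 genes resembled one another in pairs. Pearson's r of the leading probe sets, relative to the array medians over 8 arrays, was 0.95 for H19 and Peg3, 0.90 for Plagl1 and Grb10, and 0.89 for the neighbours Peg10 and Sgce. It was -0.96 for Meg3 with Plagl1 and with Grb10, and -0.83 for the neighbours Dlk1 and Meg3. The arrays are pairs from 4 groups, so each r describes mainly an order of group levels. Among 4859 genes that reached 8 on some array and had an SD of at least 0.5, the 1 most like H19 was Rapgef1 (0.988). For Peg3 it was Nlgn2 (0.990), for Mest Mfap2 (0.988), for Plagl1 Cyp1b1 (0.994) and for Meg3 Cyb5r1 (0.995). For Dlk1 it was Psma6 (0.992), for Grb10 Dido1 (0.994), for Peg10 Txnip (0.995) and for Sgce Hs1bp3 (0.988). Ndn varied too little for that search.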

How the data were processed

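The deposited table holds log2 values per probe set, normalized by the authors with RMA, per the submitters' processing notes; the version is not given in the sources used here. Sorted and gonad arrays appear to have been normalized as separate sets, a step that no label records. The table has 45101 probe sets, of which 64 array controls were left out. GEO's platform annotation gave 1 symbol to 34945, several to 932 and none to 9160; 34741 matched RefSeq of GRCm38.p6 by gene ID and 0 symbols changed. Array number, 2 per group, limits the precision.

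The test was limma (version 3.58.1, under R 4.3.3), with all 8 arrays in 1 fit, a mean for each group, 4 residual degrees of freedom and moderation by eBayes. Its p-values are two-sided, were adjusted by Benjamini-Hochberg over 45037 probe sets, and were called at 0.01. Values were used as deposited within a set and centred on each array's median between sets, and intervals are 95%. The scripts were tested on simulated data.

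The 10 genes, the marker lists and the list of other imprinted genes were chosen with earlier results of these data known. Named genes were the 10, the partner genes Igf2, Igf2r, Cdkn1c, Phlda2, Snrpn, Gnas, Nnat, Magel2, Rian, Usp29 and Copg2, up to 6 other imprinted genes called per comparison, and the genes most like each of the 10. Each gene takes a probe set with 1 symbol, except H19. The authors' own R/maanova results were not used. Alternatives covered scaling, probe set choice, moderation, threshold, replicate blocks and each array left out.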

Additional observations from a re-analysis of the deposited data

How the results depend on the processing

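Leaving out 1 array at a time, probe sets called among the 37 ranged over 0 to 2 for Sertoli minus pre-granulosa (3 with all arrays), 0 to 15 for Sertoli minus testis (11) and 0 to 11 for pre-granulosa minus ovary (8), and stayed at 0 for testis minus ovary and for the interaction. For the other imprinted genes the ranges were 0 to 5 (1 with all arrays), 0 to 11 (5), 0 to 9 (3) and, for testis minus ovary, 0 to 1 (1). With limma fitted to the 4 arrays of a comparison alone, counts of the 37 were 0 for Sertoli minus pre-granulosa and 0 for pre-granulosa minus ovary. The other genes gave 0 in both of these and 0 in testis minus ovary. Of all probe sets that fit called 0, 0 and 80 in these comparisons, in that order. With a variance weight per group, calls were 1 of the 37 between the sorted cells and 3 in pre-granulosa minus ovary. Of the others 9 were called in Sertoli minus testis and 1 in pre-granulosa minus ovary. All probe sets gave 264 between the sorted cells, 5711 in Sertoli minus testis and 1100 in pre-granulosa minus ovary. Without moderation, calls were 1 of the 37 between the sorted cells, 2 in Sertoli minus testis and 0 in pre-granulosa minus ovary. Of the others 0 were called between the sorted cells, 0 between the gonads, 0 in Sertoli minus testis and 1 in pre-granulosa minus ovary. All probe sets gave 13 between the sorted cells, 0 between the gonads, 690 in Sertoli minus testis and 294 in pre-granulosa minus ovary. At an adjusted p of 0.05, Sertoli minus pre-granulosa gave 5 of the 37 and 2 of the others, against 2476 of all probe sets. Sertoli minus testis gave 20 and 16, against 11645 of all, and pre-granulosa minus ovary 15 and 14, against 9907 of all. Quantile normalization over all arrays left 3 of the others in Sertoli minus testis, against 2469 of all probe sets.

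The replicate numbers do not pair the arrays: same-numbered deviations correlated at -0.16 to 0.05. With the replicate block, calls were 1 of the 37 between the sorted cells, 3 in Sertoli minus testis and 1 in pre-granulosa minus ovary. Of the others 0 were called between the sorted cells, 0 between the gonads and 2 in Sertoli minus testis. All probe sets gave 341 between the sorted cells, 17 between the gonads, 977 in Sertoli minus testis and 929 in pre-granulosa minus ovary.

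Of 905 alternatives for single genes 790 kept direction and side of the threshold, 71 lost the call, 25 gained it and 19 turned the sign, none of a called value; the cause was not tested. With 1 array left out, the Sertoli minus pre-granulosa difference ranged over -0.35 to 0.14 for Meg3, -0.0739 to 0.30 for Plagl1, -0.16 to 0.53 for Grb10 and -3.98 to 0.10 for Peg10. That of pre-granulosa minus ovary ranged over -3.75 to 0.35 for Peg10 and -0.75 to 0.24 for Sgce, that of testis minus ovary over -0.0863 to 0.0555 for Sgce, and the interaction over -0.42 to 0.27 for Grb10 and -0.44 to 0.0771 for Ndn. As deposited, Peg3 gave -0.19 in pre-granulosa minus ovary and Ndn -0.17 in Sertoli minus testis. With the mean over probe sets, Peg3 gave 0.0235 in testis minus ovary, Grb10 0.0635 in Sertoli minus testis, and the interaction was -0.0683 for Meg3 and 0.18 for Grb10. Sgce in testis minus ovary lay at 0.000249 with centring, 0.0022 and 0.0014 with quantile normalization over all arrays and within sets. H19 between the sorted cells became called under both quantile normalizations and under limma with trend and robust moderation.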

Other observations

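Kcnq1ot1, a long noncoding RNA of the imprinted cluster that holds Cdkn1c and Phlda2, was looked at after its values were seen. It read 9.42 and 9.94 in Sertoli arrays, 10.18 and 11.21 in pre-granulosa arrays, 8.31 and 8.52 in testis arrays and 9.39 and 9.21 in ovary arrays. Relative to the array medians it gave 1.66 ± 0.37 in Sertoli minus testis (limma adjusted p = 0.0244) and 1.77 ± 0.37 in pre-granulosa minus ovary (limma adjusted p = 0.0225), and neither was called. Phlda2 in the same cluster had the same sign in Sertoli minus testis, at 0.30, and was not called (limma adjusted p = 0.178). It had the opposite sign in pre-granulosa minus ovary, at -2.21 (limma adjusted p = 0.00139). Cdkn1c gave 0.28 and -0.37 in these comparisons and was not called.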
